A study of Mus musculus with 14 samples.

Results

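The 37 genes described here are the Hox genes that the array could read by themselves, out of 19938 genes measured in the series. They were chosen by name alone: every probe whose platform annotation gave a single symbol of the form Hoxa, Hoxb, Hoxc or Hoxd followed by a number. The rule used no measured values, though earlier results of these data were known when the members were chosen. Hoxb8 was not among the members, since its probe was shared with Hoxb7. The clusters lie on chromosomes 6 (Hoxa), 11 (Hoxb), 15 (Hoxc) and 2 (Hoxd). The members were 10 genes of Hoxa and 9 each of Hoxb, Hoxc and Hoxd, each read by 1 probe. By position along the clusters, 7 were anterior (numbers 1 to 3), 14 central (4 to 8) and 16 posterior (9 to 13).

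Hox genes encode homeodomain transcription factors that give cells their position along the head-to-tail axis and the limbs. The genes lie in clusters in the order in which they are used along the body, with low numbers toward the head and high numbers toward the tail, and genes of the same number in different clusters are paralogues. Fibroblasts of the adult and the embryo keep a Hox pattern that reflects the part of the body they came from. In pluripotent cells the clusters are held silent, largely by Polycomb complexes, which place a repressive mark on histone H3, while trithorax-group enzymes and retinoic acid signalling activate them. Vitamin C (ascorbate) is a cofactor of iron-dependent dioxygenases, among them enzymes that remove methyl groups from histones and DNA.

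RNA came from mouse embryonic fibroblasts (MEFs), a primary culture of mixed embryonic cells, infected in 2 rounds with retroviruses for Sox2, Klf4 and Oct4 (SKO) or for green fluorescent protein (GFP). From day 2 after the second infection all cultures were in mouse embryonic stem cell medium with serum and leukaemia inhibitory factor, with 50 µg/ml vitamin C throughout in the treated arm and none in the untreated arm. Both arms of the SKO cells were sampled on days 3, 4, 5, 6, 8 and 10, and both arms of the GFP cells on day 3. Each condition and day had 1 array, which made 14 arrays in all, so the spread in every test is that between days or arms of this course and not between independent cultures; the number of arrays limits the precision. No uninfected MEFs, no cells infected with fewer factors and no established pluripotent line were among the samples, and the strain and the embryonic day of the MEFs were not given in the sources used here.

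All values are log2 signals as deposited, and a difference of 1 is a doubling. Array medians lay between 5.19 and 5.28. For Oct4 the labelled virus was borne out by its gene Pou5f1, at 4.05 and 4.10 in the GFP arrays and between 11.2 and 12.6 in the SKO arrays. The other 2 factors differed far less. Klf4 was 7.43 and 7.51 in the GFP arrays and between 8.37 and 9.28 in the SKO arrays. Sox2 was 4.28 and 4.81 in the GFP arrays and between 5.14 and 6.28 in the SKO arrays. The mean signal of 15 fibroblast markers was 10.2 and 10.6 in the GFP arrays and between 9.53 and 9.86 in the SKO arrays. That of 15 pluripotency markers reached 4.91 without and 5.44 with vitamin C on day 10, and that of 10 macrophage markers went from 4.47 and 4.55 on day 3 to 6.07 and 5.88 on day 10. The SKO arrays of days 3, 5 and 10 were known from earlier results of these data to stand apart from those of days 4, 6 and 8, a division that matches no condition in the labels, and results are also given within each set. In bulk RNA, fewer cells of a type and less RNA per cell cannot be told apart.

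The Hox probes were measured over a modest range of signals. Of the 37 members, 7 (Hoxb13, Hoxc11, Hoxc12, Hoxc13, Hoxd1, Hoxd12 and Hoxd13) had a mean over the 14 arrays below 4.54, a limit that the 6646 genes of lowest signal fell under, where a change can be understated. These are mainly the tail-most genes of Hoxb, Hoxc and Hoxd, which in the embryo act in the tail, the genital region and the far ends of the limbs. The range of a member over the 14 arrays went from 0.27 for Hoxa7 to 2.05 for Hoxb9. No member lost or gained its signal outright over the course, as the map of all values by cluster shows.

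**Figure D1:**
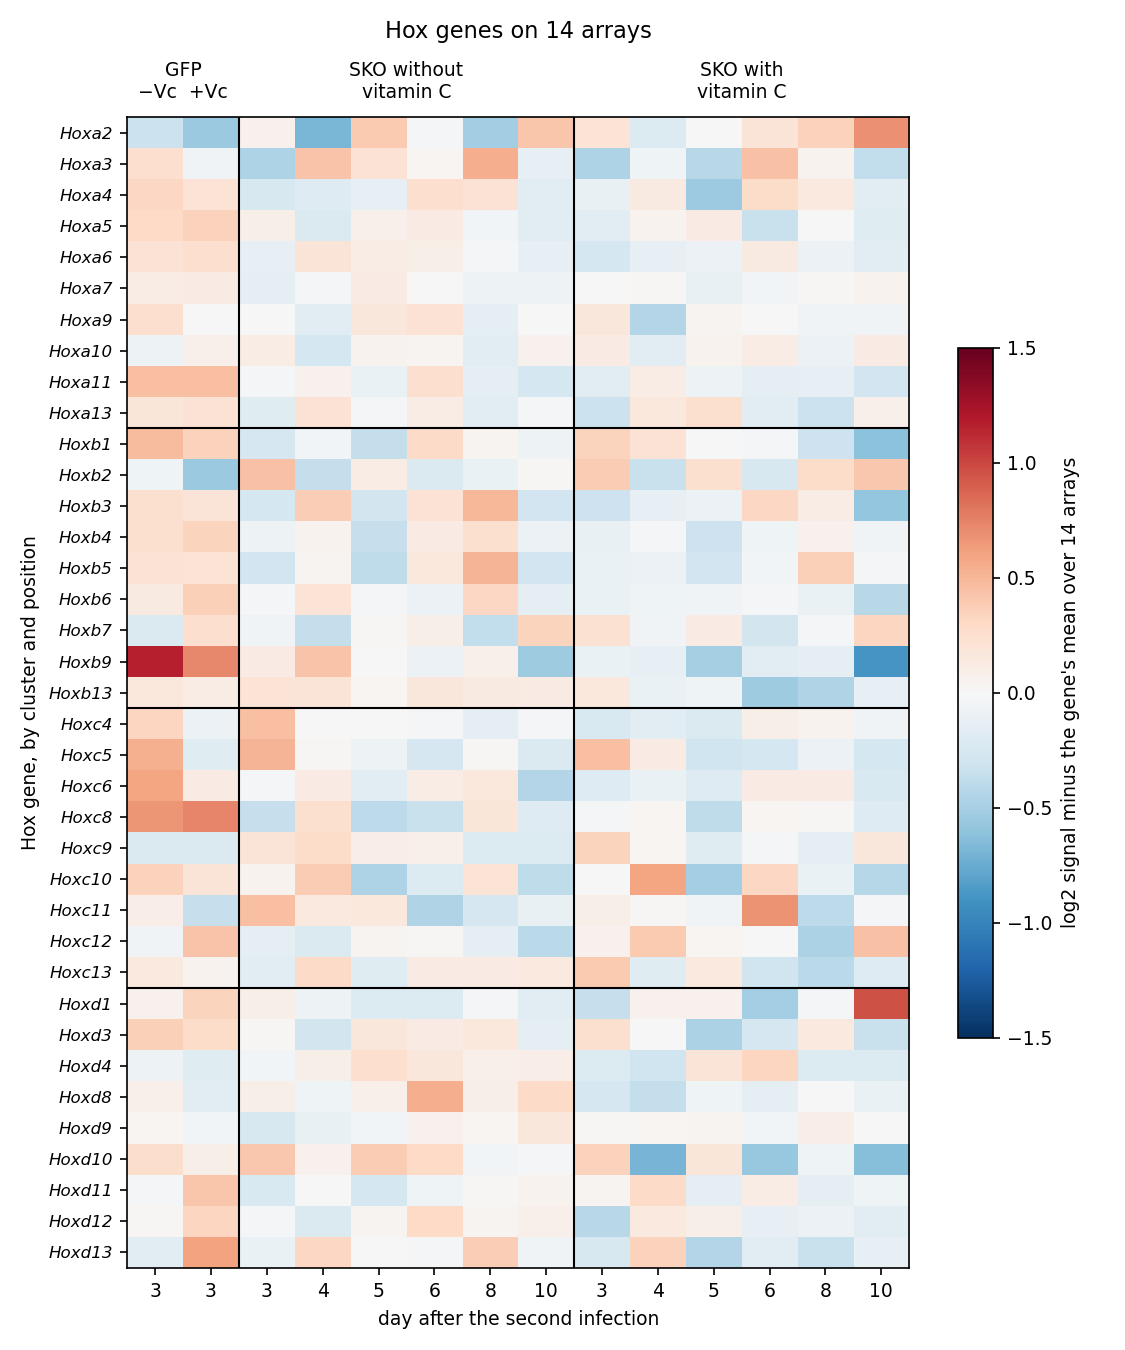
Log2 signal of the 37 Hox genes (rows, by cluster and position) on the 14 arrays (columns, by virus, vitamin C and day), each value minus the gene's mean over the 14 arrays; black lines separate clusters and culture arms. The 2 GFP arrays are above that mean for Hoxb9, Hoxc8 and Hoxa11, and no cluster changes colour as a block with the day.

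The first comparison was that of SKO and GFP cells of day 3, which asks how the Hox pattern of the fibroblasts stood early after the 3 factors were introduced. Hoxb9, Hoxc8 and Hoxa11 were lower in SKO cells and Hoxb2 was higher; these 4 of 37 members passed the threshold (limma over all genes, Benjamini-Hochberg adjusted p under 0.05). Over all genes, 8.43% were called lower and 9.22% higher, against 3 members (8.11%) and 1 member (2.70%). The share of members called was thus near that of all genes for falls and below it for rises. The median difference, SKO minus GFP, was -0.23 over the members and -0.04 over all genes. It was below 0 for 26 of the 37 members and for 10824 of all 19938 genes.

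Hoxb9 is a posterior gene expressed in the trunk and also in the mammary gland, and it had the largest difference. Its log2 signal was 8.56 without and 8.11 with vitamin C in GFP cells, and 7.51 and 7.29 in SKO cells of the same day. Both GFP arrays were above all 12 SKO arrays, whose highest value was 7.82. The difference was -0.94 ± 0.16 (SE; 1.91-fold lower in SKO cells, adjusted p = 0.0013 by limma). Against the SKO arrays of day 4 in place of day 3 it was -0.79 (adjusted p = 0.0065 by limma), and it passed the threshold in all of the 23 other settings tried.

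Hoxc8, a central gene of the trunk that takes part in patterning the thoracic skeleton, was 8.10 without and 8.18 with vitamin C in GFP cells and 7.10 and 7.41 in SKO cells on day 3. Both GFP arrays were again above all 12 SKO arrays, which lay between 7.05 and 7.68. The difference was -0.89 ± 0.17 (1.85-fold lower, adjusted p = 0.0028 by limma). Against SKO day 4 it was -0.57 and did not pass (adjusted p = 0.0598 by limma).

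Hoxa11, which patterns the middle segment of the limb and the uterus, was 5.62 and 5.63 in GFP cells and 5.15 without and 5.01 with vitamin C in SKO cells on day 3. Its 12 SKO values, from 4.89 to 5.43, did not reach the GFP values. The difference of -0.54 ± 0.15 (1.46-fold lower, adjusted p = 0.027 by limma) no longer passed when either GFP array or either SKO array of day 3 was left out (adjusted p from 0.0664 to 0.178), nor against SKO day 4 (-0.36, adjusted p = 0.224).

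Hoxb2, an anterior gene of the hindbrain, was the only member called higher. It was 5.97 without and 5.48 with vitamin C in GFP cells and 6.47 and 6.41 in SKO cells on day 3. The difference was 0.72 ± 0.20 (1.64-fold higher, adjusted p = 0.0228 by limma). It rested on the day: against SKO day 4, when Hoxb2 was at 5.67 and 5.70, the difference was -0.04 (adjusted p = 0.955 by limma). It also failed without the treated GFP array (0.40, adjusted p = 0.298 by limma) and without either SKO array of day 3 (adjusted p = 0.135 and 0.0939).

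Both GFP arrays lay above all 12 SKO arrays for 7 members (18.9% of members, against 7.47% of all genes): Hoxa5, Hoxa6, Hoxa11, Hoxb1, Hoxb9, Hoxc8 and Hoxd3. This rule needs no fit, but the 12 SKO arrays are 1 course and the GFP arrays are from day 3 alone. Hoxa6 was 6.67 and 6.70 in GFP cells against a highest SKO value of 6.64, and its day 3 difference of -0.43 ± 0.15 narrowly missed the threshold (adjusted p = 0.0596 by limma). Hoxa5, a gene of the neck and lung, was 6.40 and 6.45 in GFP cells against at most 6.23 in SKO cells, with a difference of -0.36 ± 0.18 (adjusted p = 0.185). The opposite order, both GFP arrays below all SKO arrays, held for Hoxc9 alone (2.70% of members, 6.92% of all genes), at 4.84 and 4.85 against a lowest SKO value of 4.86.

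The SKO minus GFP difference was below 0 for 8 of 10 Hoxa genes (median -0.40), 6 of 9 Hoxb genes (-0.37), 5 of 9 Hoxc genes (-0.01) and 7 of 9 Hoxd genes (-0.18); differences between clusters were not tested. By position the medians were -0.33 for the anterior, -0.34 for the central and -0.17 for the posterior members. Neighbours of a cluster did not share 1 value: in Hoxb the run from Hoxb3 to Hoxb6 lay between -0.51 and -0.31, none past the threshold, while Hoxb7, the next member along the cluster, was at 0.07. Nor did paralogues: of the genes numbered 9, Hoxb9 fell, while Hoxa9 was at -0.04, Hoxd9 at -0.12 and Hoxc9 at 0.49. Among those numbered 2, Hoxa2 was at 0.58 ± 0.24 (adjusted p = 0.12 by limma) beside Hoxb2 at 0.72.

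**Figure D2:**
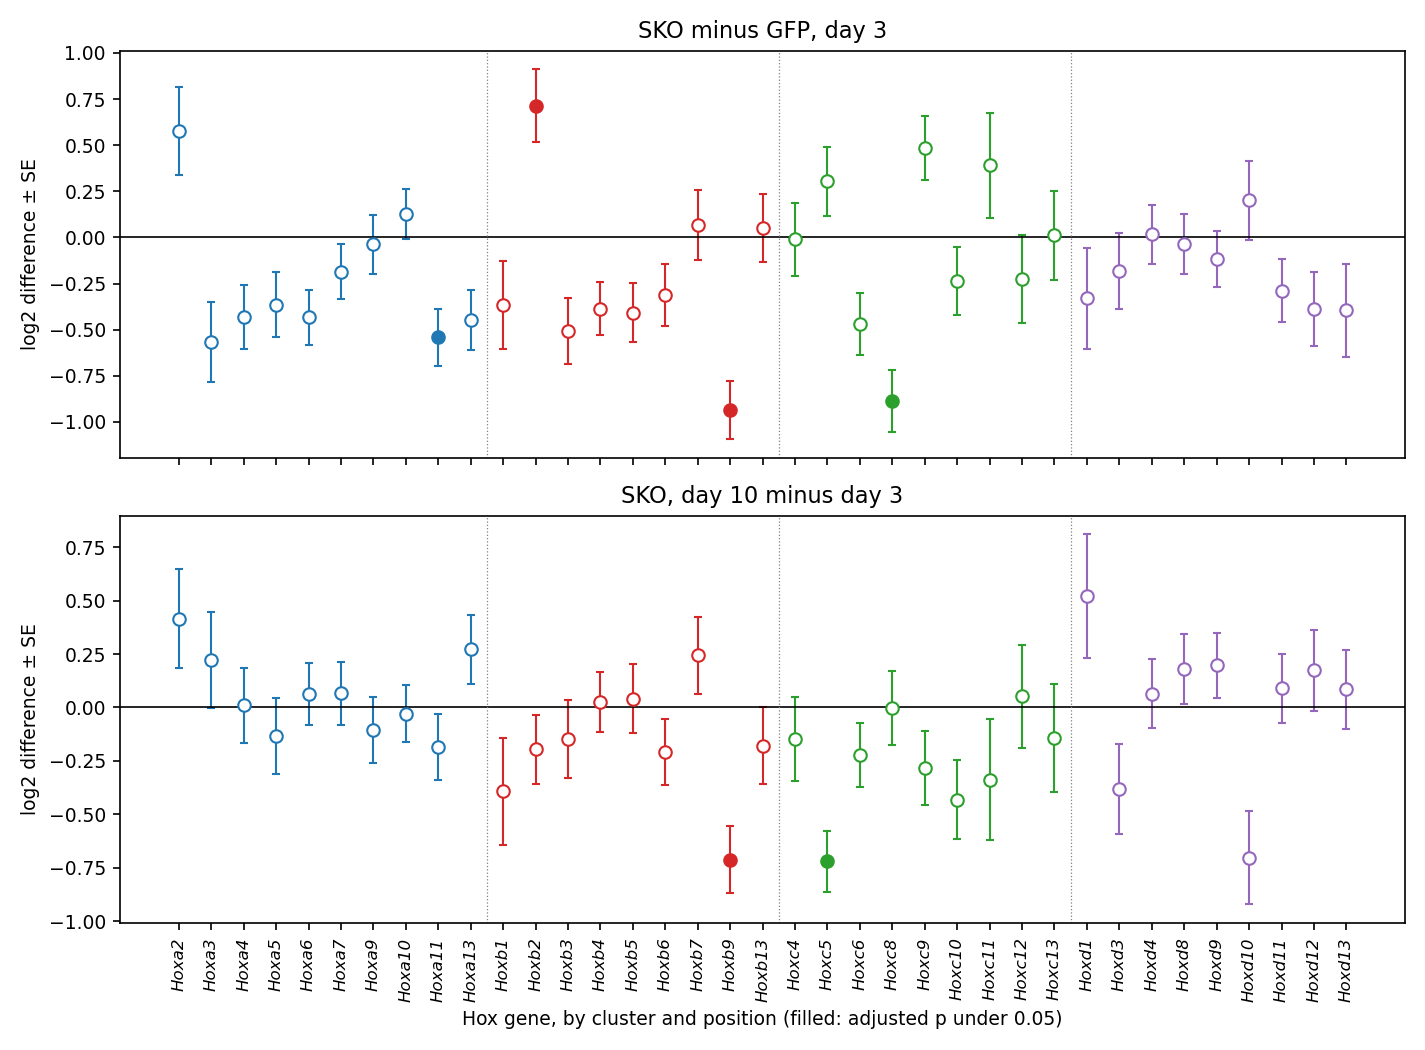
Log2 differences ± SE of the 37 Hox genes by cluster (colours) and position, for SKO minus GFP cells on day 3 (top) and for day 10 minus day 3 in SKO cells (bottom); filled points passed an adjusted p of 0.05 (limma). In the top panel 26 genes are below 0 with Hoxb9 and Hoxc8 lowest, and in the bottom panel Hoxc5 and Hoxb9 are lowest and filled, with Hoxd10 close to them and open.

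Fibroblast markers moved in the same comparison: 9 of 15 were lower in SKO cells and none was higher (median -1.06, against -0.23 for the Hox genes). Over all genes, 8.43% were called lower and 9.22% higher, the shares behind each marker count here. Of 10 macrophage markers 1 was lower and none higher, and of 8 neural markers 3 were higher: Gap43 (2.17 ± 0.29 on the log2 scale), Stmn2 (2.12 ± 0.22) and Nes (1.01 ± 0.21). The neural list did not move as a whole: 4 of the 8 differences were below 0, none of them called, and the median was 0.02. The part of these shifts in the Hox differences was not tested.

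Promoter sequence was available for 21 of the 37 members (23 start sites, RefSeq, GRCm38.p6). Hoxa11 was the only gene of the 4 called ones with an entry, so the stretches shown are its own and those of member paralogues of called genes without an entry: Hoxa9 and Hoxd9 for Hoxb9, Hoxd8 for Hoxc8, Hoxa2 for Hoxb2 and Hoxa5 for Hoxc5, which fell later in the course. They show how unlike in base composition the listed start regions of these Hox genes are. Each is the 250 bases before the start, 5′ to 3′ on the gene's strand, with CpG dinucleotides, the sites of DNA methylation, in capitals.
Hoxa11, chr6:52245811-52246060 (- strand): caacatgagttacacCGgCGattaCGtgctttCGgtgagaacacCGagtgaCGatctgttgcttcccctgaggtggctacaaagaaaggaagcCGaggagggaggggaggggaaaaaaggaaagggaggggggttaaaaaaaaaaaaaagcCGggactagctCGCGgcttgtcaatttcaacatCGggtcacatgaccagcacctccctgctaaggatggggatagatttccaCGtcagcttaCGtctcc
Hoxa9, chr6:52227371-52227620 (- strand): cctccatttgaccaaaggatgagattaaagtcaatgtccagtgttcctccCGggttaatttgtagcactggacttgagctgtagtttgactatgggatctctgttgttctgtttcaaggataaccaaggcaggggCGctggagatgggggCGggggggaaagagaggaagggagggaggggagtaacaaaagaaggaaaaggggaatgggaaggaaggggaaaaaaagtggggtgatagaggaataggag
Hoxd9, chr2:74697513-74697762 (+ strand): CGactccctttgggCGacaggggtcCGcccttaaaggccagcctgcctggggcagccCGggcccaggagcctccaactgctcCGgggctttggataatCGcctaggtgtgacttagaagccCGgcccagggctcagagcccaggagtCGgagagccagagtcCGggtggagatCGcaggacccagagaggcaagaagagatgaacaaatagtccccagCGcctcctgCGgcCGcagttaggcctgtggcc
Hoxd8, chr2:74704365-74704614 (+ strand): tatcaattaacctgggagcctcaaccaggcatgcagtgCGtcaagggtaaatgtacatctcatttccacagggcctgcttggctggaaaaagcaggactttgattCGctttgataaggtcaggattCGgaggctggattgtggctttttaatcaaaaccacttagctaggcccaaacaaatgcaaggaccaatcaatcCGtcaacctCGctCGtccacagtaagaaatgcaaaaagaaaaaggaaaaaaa
Hoxa2, chr6:52164832-52165081 (- strand): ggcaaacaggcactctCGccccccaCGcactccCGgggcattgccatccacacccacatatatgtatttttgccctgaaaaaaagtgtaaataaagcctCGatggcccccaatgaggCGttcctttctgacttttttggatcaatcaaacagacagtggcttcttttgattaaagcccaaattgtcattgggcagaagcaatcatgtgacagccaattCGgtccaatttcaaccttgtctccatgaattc
Hoxa5, chr6:52204588-52204837 (- strand): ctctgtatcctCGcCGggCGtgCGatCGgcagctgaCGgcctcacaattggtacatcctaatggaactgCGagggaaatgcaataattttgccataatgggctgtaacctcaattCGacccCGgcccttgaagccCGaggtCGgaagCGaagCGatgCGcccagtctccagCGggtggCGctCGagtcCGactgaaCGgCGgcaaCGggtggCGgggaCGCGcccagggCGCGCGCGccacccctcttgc
The Hoxa5 stretch holds 28 CpG dinucleotides, Hoxa11 and Hoxd9 13 each, Hoxd8 and Hoxa2 6 each, and Hoxa9 3. Over the 23 Hox start sites the median was 13 (from 2 to 35), and over all 32841 RefSeq start sites it was 6. A count also depends on the start site listed: those of Hoxa10 held 7 and 20, and those of Hoxd11 held 2 and 20. DNA methylation was not measured in this series. The PBX–HOX motif TGATTNAT, searched on both strands, occurred in 2 of the 23 stretches (8.7%, against 2.83% of all), those of Hoxa2 and Hoxd11. In Hoxa2 it begins 111 bases before the start. The KLF motif GGGNGTGG occurred in 6 (26.1%, against 15.9% of all) and the octamer ATTTGCAT, which Oct4 can bind, in 0 (1.6% of all). These matches describe letters in a short window and not sites in use.

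Across the SKO course, day 10 was compared with day 3. Hoxc5 and Hoxb9 were called lower on day 10 and no member was called higher. The fall was shared by 2 of 37 members (5.41%), close to the 5.64% of all genes that were called lower, and 6.55% of all genes were called higher against 0 members. The median difference was -0.03 over the members and -0.02 over all genes. With day 4 as the base, 2 members were called higher (Hoxa2 and Hoxb2) and 2 lower (Hoxb9 and Hoxc10), with 16% of all genes called. Day 4 lies in the other set of SKO arrays than day 10, and the part of that division was not tested. Within days 3, 5 and 10 alone, Hoxb9, Hoxc5 and Hoxd10 were called lower and no member higher (11.1% of all genes called). Between day 3 and day 10, 9 of 10 macrophage markers and 8 of 15 pluripotency markers were called higher. Of the fibroblast markers 3 were called higher and 2 lower, and 4 of 8 neural markers were called lower. The part of these markers in the Hox values was not tested.

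Hoxc5, a central gene of the neck and upper trunk, was at 6.70 without and 6.64 with vitamin C on day 3. On days 4, 5, 6, 8 and 10 it then read 6.21, 6.11, 5.94, 6.21 and 5.97 without vitamin C and 6.32, 5.89, 5.93, 6.10 and 5.93 with it. Both arrays of day 3 were thus above all 10 later SKO arrays, and most of the fall had taken place by day 5. That order follows in part from picking the gene by its day 3 difference, and its share over all genes was not counted. From day 3 to day 10 it fell by 0.72 ± 0.14 (1.65-fold, adjusted p = 0.0059 by limma), whereas between day 5 and day 10 the difference was -0.05 (adjusted p = 0.945 by limma). In GFP cells of day 3 it was 6.72 without and 6.01 with vitamin C. Without the treated array of day 3 or the untreated array of day 10 the call was lost at an equal difference (-0.73 and -0.71, adjusted p = 0.0594 and 0.0518).

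Hoxb9, already below its GFP level on day 3, was lower still on day 10. Without vitamin C it was 7.51, 7.82, 7.39, 7.30, 7.47 and 6.86 on days 3, 4, 5, 6, 8 and 10, and with vitamin C 7.29, 7.27, 6.89, 7.23, 7.24 and 6.51. The lowest value of each arm was that of day 10. From day 3 to day 10 it fell by 0.71 ± 0.16 (1.64-fold, adjusted p = 0.0119 by limma). Leaving out the treated array of day 3, the treated array of day 10 or the untreated array of day 10 kept the difference between -0.73 and -0.65 and lost the call (adjusted p from 0.07 to 0.119).

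Hoxd10, a posterior gene of the limb and lower spinal cord, had a difference of the same size, -0.70 ± 0.22, and did not pass (adjusted p = 0.0584 by limma). It was 5.81 and 5.75 on day 3 and 5.39 and 4.77 on day 10. It passed under 6 other settings and when days 6 or 8 lost an array (adjusted p from 0.0349 to 0.0494). With day 4 as the base it was -0.01 (adjusted p = 0.986), without the treated array of day 3 -0.48 (0.413), without that of day 10 -0.58 (0.31), and for days 8 and 10 against days 3 and 4 -0.22 (0.404). Hoxd1 was the member with the largest positive difference, 0.52 ± 0.29 (adjusted p = 0.311), with 4.10 and 3.66 on day 3 and 3.84 and 4.96 on day 10, so that only the treated array of day 10 was high. By cluster, the difference was below 0 for 8 of 9 Hoxc genes (median -0.22) and 6 of 9 Hoxb genes (-0.18), but for 4 of 10 Hoxa genes (0.04) and 2 of 9 Hoxd genes (0.09). Over all genes this difference was below 0 for 10584 of 19938. Differences between clusters were not tested.

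An F test over all 6 days asked which members varied at any time. It called 6 of 37 (16.2%, against 18.9% of all genes): Hoxb2, Hoxb3, Hoxb5, Hoxb9, Hoxc5 and Hoxc10, that is 4 Hoxb genes, 2 Hoxc genes and none of Hoxa or Hoxd. The range between the highest and lowest day means was 0.76 for Hoxb2 (adjusted p = 0.0324 by limma), 0.74 for Hoxb3 (0.0403) and 0.76 for Hoxb5 (0.0443). It was 0.97 for Hoxc10 (0.0219). The calls were lost in 12 of 28 other settings for Hoxb2, 15 for Hoxb3, 18 for Hoxb5 (quantile normalization among them, adjusted p = 0.0523), 11 for Hoxc10, 7 for Hoxb9 and 4 for Hoxc5, most of them settings that leave out an array or day. Hoxb3 and Hoxb5 pattern the hindbrain, neck and shoulder, and Hoxc10 the lumbar level and hindlimb.

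These courses went up and down rather than steadily. Hoxb3 read 6.46, 7.09, 6.45, 6.94, 7.22 and 6.43 without vitamin C and 6.41, 6.60, 6.63, 7.03, 6.83 and 6.14 with it. Hoxb5 read 5.61, 5.94, 5.52, 6.06, 6.41 and 5.61 without and 5.80, 5.81, 5.61, 5.86, 6.25 and 5.87 with it, highest on day 8 in both arms. Hoxc10 read 5.69, 6.01, 5.17, 5.43, 5.84 and 5.25 without and 5.64, 6.22, 5.12, 5.94, 5.53 and 5.21 with it, and its lowest values were those of days 5 and 10 in both arms. Hoxb2 ran in the opposite sense: 6.47, 5.67, 6.15, 5.82, 5.93 and 6.05 without and 6.41, 5.70, 6.27, 5.79, 6.31 and 6.44 with vitamin C, lowest on day 4.

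The mean of days 4, 6 and 8 minus that of days 3, 5 and 10 was 0.53 for Hoxb3, 0.48 for Hoxc10, 0.39 for Hoxb5 and -0.43 for Hoxb2. Among members outside the F test's calls it was 0.51 for Hoxa3 and -0.45 for Hoxa2. No member had all 6 arrays of one set above or below all 6 of the other, whereas 5.70% of all genes were above and 3.66% below on days 4, 6 and 8. Within days 3, 5 and 10 the F test called 1 member, Hoxc5, and within days 4, 6 and 8 it called 0 (6.18% and 0.878% of all genes were called in these sets). The part of this division in the calls over days was not tested further.

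**Figure D3:**
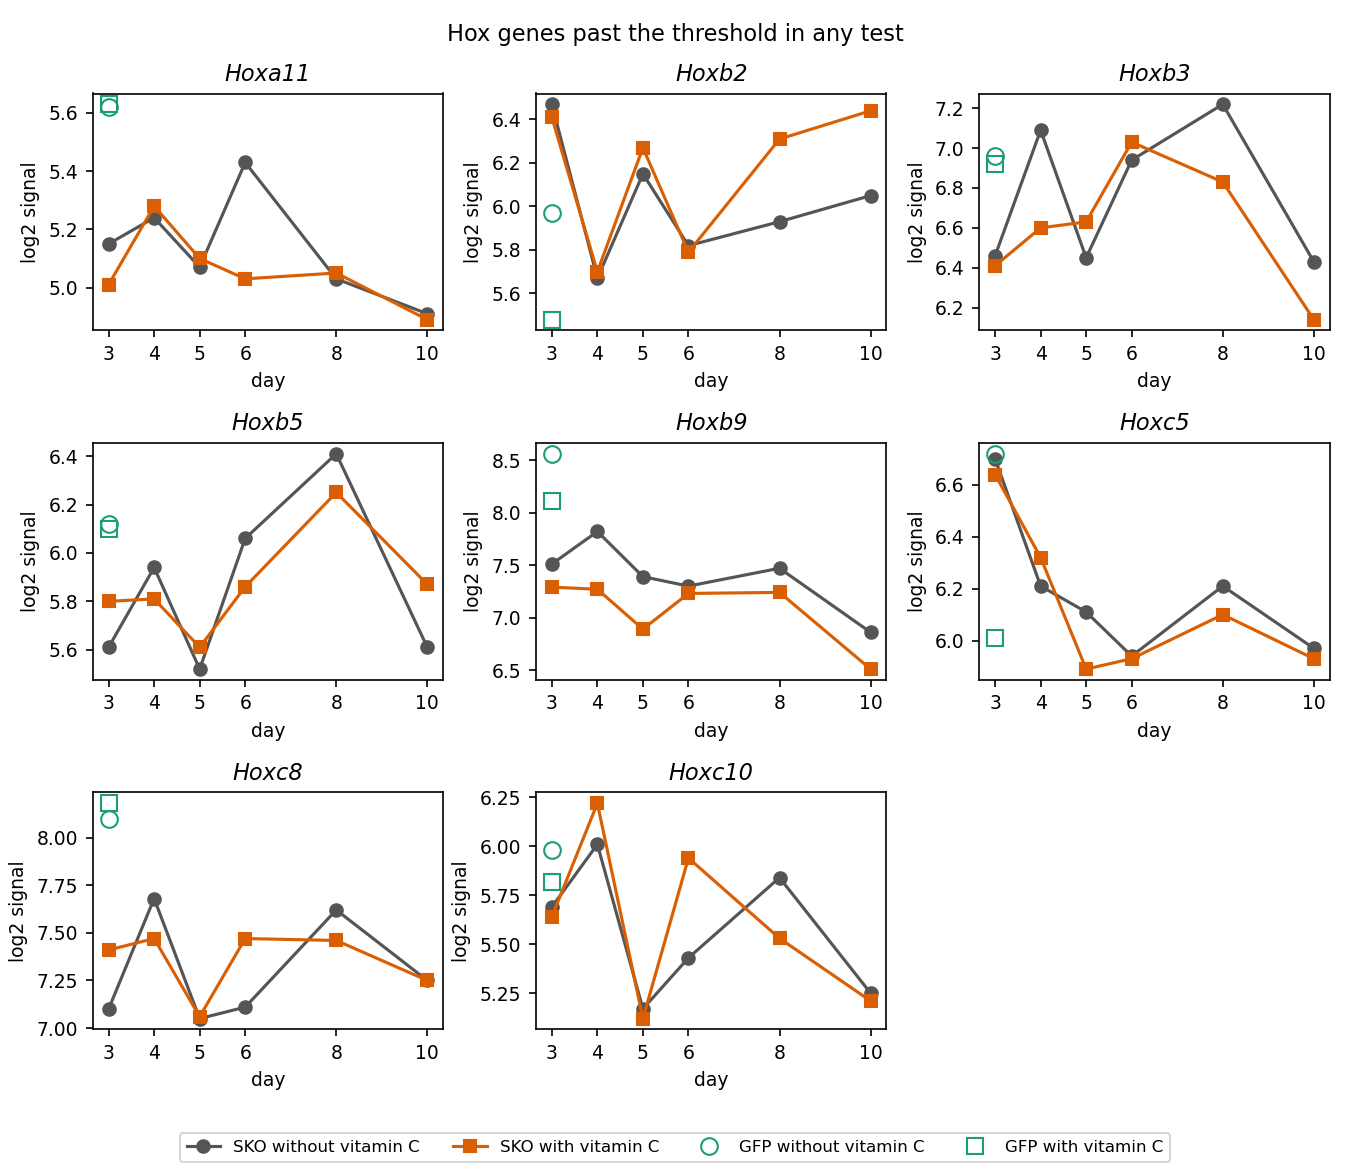
Log2 signal against the day for the 8 Hox genes past the threshold in any test, in SKO cells without (grey) and with (orange) vitamin C, joined by day, and in GFP cells of day 3 (green, open), with 1 array a point. The GFP points of Hoxb9, Hoxc8 and Hoxa11 lie above every SKO point, Hoxc5 is highest on day 3, and Hoxb3, Hoxb5, Hoxc10 and Hoxb2 rise and fall between days.

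Vitamin C was compared with no vitamin C in SKO cells over the 6 days, the comparison for which the course was laid out. No Hox gene passed the threshold (0 of 37; limma over all genes, 0.933% of all genes called). At an unadjusted p under 0.05 the count was 5 (13.5%, against 11.6% of all genes), and it stayed at 0 after adjustment in each of the alternatives run, also within days 3, 5 and 10 and within days 4, 6 and 8. The median difference was -0.05 over the members and -0.01 over all genes. The 95% interval of the difference lay within 1 log2 unit of 0 for all 37 members and within 0.5 for 30 of them, so that a doubling was outside each member's interval.

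The 5 members with an unadjusted p under 0.05 were all lower with vitamin C. They were Hoxb9 (-0.32 ± 0.09), Hoxd8 (-0.33 ± 0.10), Hoxd10 (-0.42 ± 0.13), Hoxb13 (-0.33 ± 0.10) and Hoxd13 (-0.24 ± 0.11), with adjusted p from 0.151 to 0.414 (limma). The first 4 of these were lower on all 6 days, which held for 10.8% of members and 3.20% of all genes. Hoxa10 alone was higher on all 6 days (2.70% of members, 3.90% of all genes), by 0.05 ± 0.08.

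The daily differences of Hoxb9 were -0.22, -0.55, -0.51, -0.06, -0.23 and -0.35 on days 3, 4, 5, 6, 8 and 10, and in GFP cells the difference was -0.44. All 7 differences were thus below 0, as they also were for Hoxd8, Hoxd10 and Hoxb13, while all 7 were above 0 for Hoxa10. These genes were named for their values in the SKO pairs, so the shared sign is no separate support. The share of all genes with 1 sign in all 7 pairs was not counted. Hoxd8, a gene of the trunk, differed by -0.34, -0.30, -0.14, -0.69, -0.10 and -0.39, and by -0.25 in GFP cells. Hoxd10 differed by -0.06, -0.76, -0.20, -0.87, -0.02 and -0.62, and by -0.19 in GFP cells. Its arms were nearly level on days 3 and 8. Hoxb13 was at a low signal in both arms, between 3.44 and 4.18 in SKO cells, and its differences went from -0.70 to -0.05.

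The Hoxd cluster had the lowest median, -0.13, against -0.05 for Hoxa, -0.07 for Hoxb and -0.01 for Hoxc, but not as a block: Hoxd9, which lies between Hoxd8 and Hoxd10, was at 0.05 ± 0.09, and Hoxd11, next to Hoxd10, at 0.09 ± 0.09. The highest single daily differences were those of Hoxd1 (1.13 on day 10) and Hoxc11 (1.12 on day 6), both among the 7 members of lowest signal, followed by Hoxa2 (0.86 on day 8), which is not.

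**Figure D4:**
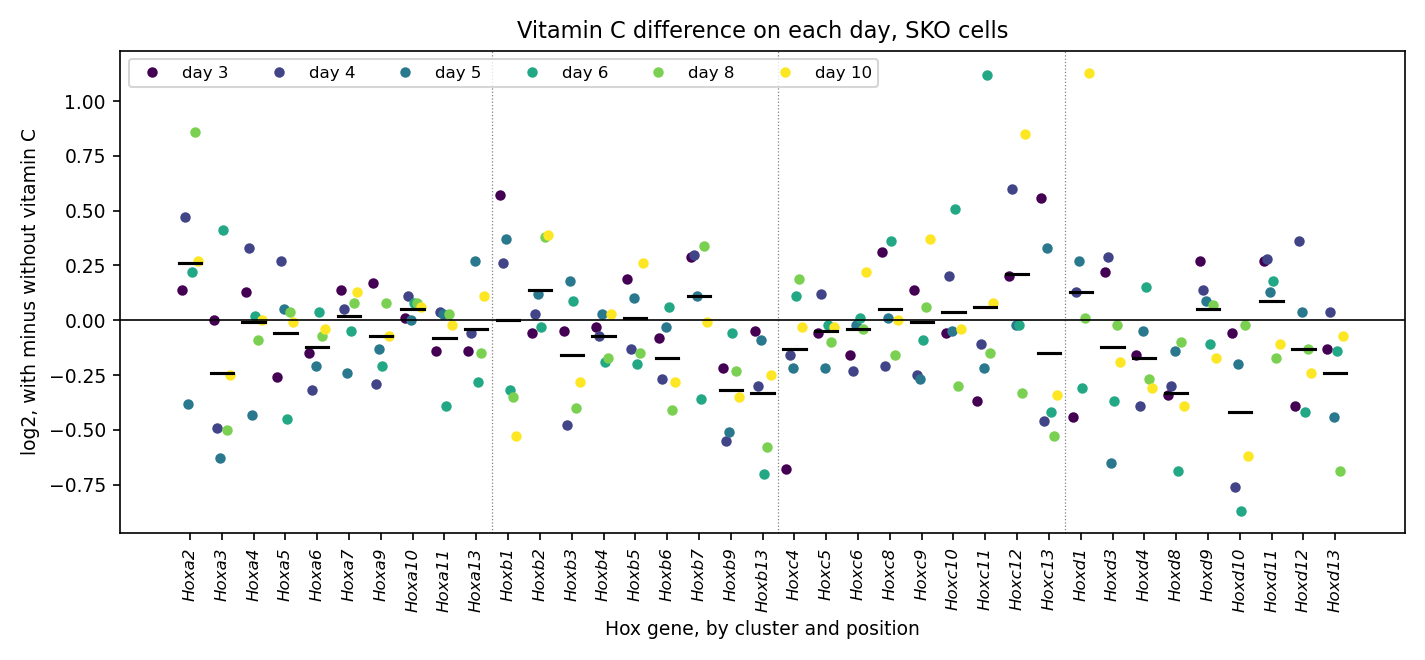
Log2 signal with minus without vitamin C in SKO cells for each of the 37 Hox genes (by cluster and position), with 1 point for each of 6 days (colours) and a black bar at their mean. All 6 points of Hoxb9, Hoxb13, Hoxd8 and Hoxd10 are below 0, and the 2 highest single points are Hoxd1 on day 10 (1.13) and Hoxc11 on day 6 (1.12).

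Whether vitamin C acted differently in GFP cells was asked with the interaction of virus and vitamin C, for which GFP cells give 1 pair of arrays. No member was called, and 0.00% of all genes were (limma, 0 of 19938). At an unadjusted p under 0.05 there were 3 members (8.11%, against 6.91% of all genes): Hoxd13, Hoxc5 and Hoxb2. Hoxd13 was 4.07 without and 4.83 with vitamin C in GFP cells, and its difference there was 0.76 against -0.24 in SKO cells (SE of the gap 0.28, adjusted p = 0.621). Hoxc5 was lower by 0.71 with vitamin C in the GFP pair and Hoxb2 by 0.50, beside -0.05 and 0.14 in SKO cells (adjusted p = 0.663 and 0.689). The 95% intervals of these gaps reached beyond 1 log2 unit. The SKO values are means over all 6 days, whereas the GFP pair is from day 3 alone, so virus and day are not separated. On day 3 itself the SKO differences were -0.13 for Hoxd13, -0.06 for Hoxc5 and -0.06 for Hoxb2.

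Genes that work with or on the clusters were read from lists of partners, chromatin regulators and signalling genes. TALE homeodomain proteins bind DNA together with Hox proteins. Of 8 measured, 3 were lower in SKO than in GFP cells on day 3 and none was higher (all genes, 8.43% and 9.22%; the same shares stand behind each list count on day 3 here): Meis3 (-0.95 ± 0.16, adjusted p = 0.0011 by limma), Pknox2 (-0.94 ± 0.24, adjusted p = 0.0142) and Pbx3 (-0.91 ± 0.16, adjusted p = 0.0015). None of the 8 was called between day 10 and day 3 or with vitamin C, but the test over all days called 3 (18.9% of all genes): Pbx3 (adjusted p = 0.0024), Meis3 (0.0051) and Pbx2 (0.0191), by limma. Caudal and ParaHox genes, which include Cdx activators of Hox genes, gave no call among 8 in these comparisons. Of the lists that follow, the test over all days called 12 of 26 Polycomb genes, 7 of 17 trithorax genes and other activators, and 9 of 17 retinoic acid genes. It also called 6 of 33 other positional factors and 2 of 18 neighbours of the clusters.

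Polycomb genes went both ways on day 3, with 5 of 26 higher and 5 lower in SKO cells (all genes, 9.22% and 8.43%). Pcgf2, also called Mel18, a PRC1 subunit required for normal Hox boundaries, was lower (-1.43 ± 0.16, 2.69-fold). The PRC2 genes Ezh2, the histone methyltransferase, and Eed, its partner, were higher (1.20 ± 0.20 and 0.92 ± 0.20), and the PRC1 gene Phc3 was lower (-0.86 ± 0.20). On day 10, 5 were higher than on day 3 and 1 was lower (all genes, 6.55% and 5.64%), led by Jarid2 (0.91 ± 0.14), Ezh1 (0.75 ± 0.17) and Pcgf5 (0.74 ± 0.16), with Pcgf3 lower (-0.62 ± 0.14).

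Trithorax genes and other activators gave 3 higher and 4 lower of 17 on day 3 (all genes, 9.22% and 8.43%). Mllt3 was higher (1.36 ± 0.17) and so was Psip1 (0.97 ± 0.21), whereas the H3K27 demethylase gene Kdm6b (-0.98 ± 0.18) and Aff1 (-0.88 ± 0.16) were lower. By day 10 Kmt2a, which encodes the MLL1 methyltransferase that maintains Hox expression, was higher than on day 3 (0.58 ± 0.16), as was Mllt3 (0.55 ± 0.14). These were the 2 of 17 called higher on day 10, and 0 were called lower (all genes, 6.55% and 5.64%).

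In the retinoic acid pathway, 5 of 17 genes were lower and 2 higher in SKO cells on day 3 (all genes, 8.43% and 9.22%). The receptors Rara (-1.47 ± 0.17) and Rxra (-1.04 ± 0.18) and the binding protein Crabp1 (-1.75 ± 0.31) were lower, and Rdh10, a retinol dehydrogenase, was higher (1.15 ± 0.17). From day 3 to day 10, 6 of the 17 rose and none fell (all genes, 6.55% and 5.64%): the retinaldehyde dehydrogenase Aldh1a1 rose by 1.86 ± 0.16 (3.63-fold), Rdh10 by 1.06 ± 0.16, Aldh1a3 by 0.97 ± 0.17 and Rxrg by 0.83 ± 0.18. Dhrs3, which reduces retinaldehyde to retinol, was the only gene of these lists called with vitamin C, lower by 0.51 ± 0.09 (adjusted p = 0.0234 by limma).

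Other transcription factors that mark position in limb and body wall mesenchyme also moved on day 3: 10 of 33 were lower and 2 higher in SKO cells (all genes, 8.43% and 9.22%). Meox2, a homeobox gene of somites and limb muscle, was higher by 2.71 ± 0.24 (6.55-fold), while Meox1 (-1.52 ± 0.25), Pax9 (-0.93 ± 0.15) and En1 (-0.74 ± 0.14) were lower. By day 10, 3 were higher than on day 3 and 4 were lower (all genes, 6.55% and 5.64%). The higher ones included Tbx2 (0.79 ± 0.17) and Tbx15 (0.77 ± 0.16), and the lower ones were led by Alx1 (-0.95 ± 0.15) and Prrx2 (-0.71 ± 0.19). The difference between this list and the Hox genes was not tested.

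Genes that border the clusters were read beside them. Of 18 measured neighbours, 4 were higher and 1 lower in SKO cells on day 3 (all genes, 9.22% and 8.43%). On the Hoxd side, Atp5g3, a subunit gene of ATP synthase, was higher by 0.88 ± 0.17 and Mtx2, a mitochondrial import gene next to Hoxd1, by 0.88 ± 0.20, while no Hoxd gene was called. On the Hoxc side, Cbx5, which encodes the heterochromatin protein HP1 alpha, was higher by 0.76 ± 0.16, and Calcoco1, next to Hoxc13, was lower by 0.66 ± 0.19. Between day 3 and day 10, Lnpk, with 1 coding gene between it and Hoxd13, fell by 0.75 ± 0.17 and Cbx5 by 0.55 ± 0.16. These were the 2 of 18 called lower on day 10, and 0 were called higher (all genes, 5.64% and 6.55%). Of 10 non-coding genes inside the clusters, including Mir10a, Mir10b, Mir196b and Hottip, none was called in any of the 5 tests. The closest was Mir196a-2, which lies in the Hoxc cluster, in the test over days (adjusted p = 0.0523 by limma). Mir10a (2.32 to 3.21), Mir10b (1.8 to 3.36), Mir196a-2 (2.93 to 4.12) and Haglr (3.57 to 4.29) lay below the 4.54 limit on every array. Hottip (3.62 to 4.55) and Mir196b (4.21 to 4.71) reached little above it. Mir615 (6.02 to 6.73) and Hoxaas2 (4.61 to 5.06) were above it throughout. At such low signals a change can be understated, so the lack of calls does not show unchanged levels.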

How the data were processed

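RNA of 14 cultures was hybridised to Affymetrix whole-transcript arrays. The authors deposited 1 log2 value per probe and array, made with RMA and Partek per the submitters' processing notes, with no version named in the labels; the log2 scale was read from the values (0.72 to 14.1). RMA compresses weak signals. The table held 28853 probes, 21789 of them with 1 gene symbol in the platform annotation. A gene was represented by its probe of highest mean.

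limma 3.58.1 in R 4.3.3 was fitted to all 19938 genes (lmFit, eBayes) with Benjamini-Hochberg adjustment and a threshold of 0.05. Vitamin C was tested in the 12 SKO arrays with each day as a block, days in the same fit, and virus and the interaction in all 14 arrays with a factor of virus and day. Where labels share a day, deviations of paired arrays correlated (r from 0.248 to 0.677), though days 6 and 8 correlated better with another day (0.596 and 0.294). The code was tested on simulated data. Figures used matplotlib 3.10.9.

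The members and lists were chosen with earlier results of these data known. Members past the threshold in any test are given on every array, others by range and count, and up to 4 genes per other list and comparison by size. The non-coding genes were listed after the annotation was seen.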

Additional observations from a re-analysis of the deposited data

Results flagged for a closer look

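The vitamin C difference of Hoxc11 in SKO cells on day 6 was 1.12 on the log2 scale (4.38 with and 3.26 without vitamin C), while the other 5 days lay between -0.37 and 0.08. It was marked because its gap to the nearest of the other days, divided by the range, was 0.697, above Dixon's 95% critical value for 6 values. Of 37 members looked at, 1 was marked, and chance marks about 1 in 20. Days are not replicates of a group, and Hoxc11 is among the 7 members of lowest signal.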

How the results depend on the processing

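Under every alternative the number of Hox genes called stayed at 0 for vitamin C in SKO cells and for the interaction of vitamin C with virus. For day 10 against day 3 (2 called, with 12.2% of all genes) it was 4 (2 higher, 2 lower) with day 4 as the base (16% of all genes). It was 0 with day 5 (1.73% of all genes) and 0 for a straight line over the days (9.4%). The share of all genes called thus changed with the setting as well. Leaving out 1 array or day gave 0 to 3. It was 0 without treated day 3, 1 (Hoxc5) without treated day 10 and 1 (Hoxd1) without untreated day 10. For any day (6 called) it was 2 without day 3, 3 without day 10, 1 within days 3, 5 and 10, 0 within days 4, 6 and 8, and 1 to 7 on leaving out 1 array or day. It was 1 each without untreated day 4, treated day 3 or treated day 10, 2 without untreated day 3, and 3 each without untreated day 5 or 10 or treated day 4. For SKO against GFP (4 called) it was 10 of 30 members without the third of genes of lowest signal (30.6% of all genes), 7 with an intensity trend, 1 (Hoxb9) with SKO day 4, and 2 to 5 on leaving out 1 array. It was 2 (Hoxb9 and Hoxc8) without the treated GFP array or either SKO array of day 3. Hoxb2 reversed against SKO day 4 (-0.043). Of 423 values of single genes under alternatives, 1 reversed; the causes were not tested. Median centring and quantile normalization turned no called direction. With 1 array a condition, and 7 members of low signal, small changes were not resolvable.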
